A study of Mus musculus with 9 samples.

Results

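The genes followed here are 33 genes of glycolysis and of the response to low oxygen, taken by symbol from the UMI tables of mouse-derived cells in GBM PDOXs, out of 33274 symbols listed in at least 1 table. They fall into 13 glycolytic enzymes (Ldha, Pgk1, Pgam1, Aldoa, Aldoc, Gapdh, Tpi1, Gpi1, Pfkl, Pfkp, Pkm, Hk1 and Hk2) and 20 hypoxia response genes (Slc16a3, Slc2a3, Pdk1, Bnip3, Bnip3l, Adm, Ndrg1, Egln1, Egln3, Hif1a, P4ha1, P4ha2, Ddit4, Car9, Ankrd37, Vldlr, Mif, Ak4, Pfkfb3 and Higd1a). Of these, 31 were listed in every table. Car9 was not listed for the nude mouse brain and Slc2a3 not for P3, and both were treated as missing there and not as 0. The share of all UMIs that fell on the members was therefore computed over 13 glycolytic enzymes and 18 hypoxia response genes.

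Glycolysis breaks glucose down to pyruvate in a chain of cytosolic enzymes, and lactate dehydrogenase turns pyruvate into lactate when the chain runs faster than respiration or when oxygen is short. The transcription factor HIF1 is held low by the oxygen-dependent prolyl hydroxylases of the Egln family and, when oxygen falls, binds a short DNA motif (RCGTG) near genes for glycolysis, mitophagy, collagen modification, pH control and vessel growth. In the brain, astrocytes are known for high glycolytic flux, microglia raise glycolysis when they become reactive, and GBM is known for hypoxic areas with abnormal vessels.

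A PDOX is a human GBM grown from patient-derived organoids in the brain of a nude mouse, so that the tumor cells are human and the cells of the TME are of the mouse. All animals were athymic nude mice, which lack mature T cells. The 9 samples are 7 PDOXs without drug treatment (P3, P8, P13, T16, T101, T192 and T233), 1 PDOX of line P3 in mice given temozolomide (TMZ), an alkylating drug, and 1 nude mouse brain without tumor (Nu-NB). In the TMZ experiment, mice without the drug received its solvent by the same oral route, and treated tumors were taken at the time when the mice without the drug had reached the endpoint. The other PDOXs were also collected at the endpoint of growth. Each is 1 sample, so that replicates are separate PDOXs, and T192 and T233 come from 1 patient. FACS was used to sort the cells of P8 and Nu-NB, magnetic depletion was used for the others, and the tables of Nu-NB and P8 also use an older release of gene symbols. The sort and the symbol release split the samples the same way and cannot be told apart. With 1 Nu-NB sample, all comparisons with it take its spread to be that of the PDOXs, and p-values measure the spread between PDOXs, not between control brains. A member that did not pass the threshold is therefore not shown to be unchanged.

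The promoters of 5 members that carry the differences described below are shown first, since HIF1 is known to bind near such genes. Each run is the strand of the gene from 250 bases before to 50 bases after the start that RefSeq gives on GRCm38.p6, with every match of ACGTG or GCGTG on either strand in capitals (CACGT or CACGC on the other strand). They are Ldha (chr7:46845554-46845853, + strand, with 5 matches), the lactate dehydrogenase subunit named above, Aldoc (chr11:78322823-78323122, + strand, 3 matches), the brain form of aldolase, Hk2 (chr6:82774405-82774704, − strand, 2 matches), a hexokinase that starts glycolysis, P4ha1 (chr10:59323046-59323345, + strand, 3 matches), a collagen prolyl hydroxylase, and Ankrd37 (chr8:45999801-46000100, − strand, 3 matches), a small ankyrin repeat gene.
Ldha: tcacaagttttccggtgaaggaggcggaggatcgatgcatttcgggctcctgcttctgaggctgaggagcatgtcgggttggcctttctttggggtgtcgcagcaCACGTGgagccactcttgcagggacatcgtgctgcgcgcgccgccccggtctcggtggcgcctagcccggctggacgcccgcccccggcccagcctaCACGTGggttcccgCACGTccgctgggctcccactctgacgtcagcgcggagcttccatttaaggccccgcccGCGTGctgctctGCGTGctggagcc
Aldoc: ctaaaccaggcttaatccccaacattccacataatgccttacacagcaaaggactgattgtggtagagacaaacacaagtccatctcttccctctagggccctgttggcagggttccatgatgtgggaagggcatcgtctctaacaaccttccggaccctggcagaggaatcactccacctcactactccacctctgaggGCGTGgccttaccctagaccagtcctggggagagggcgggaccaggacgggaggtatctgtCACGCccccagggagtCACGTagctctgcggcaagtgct
Hk2: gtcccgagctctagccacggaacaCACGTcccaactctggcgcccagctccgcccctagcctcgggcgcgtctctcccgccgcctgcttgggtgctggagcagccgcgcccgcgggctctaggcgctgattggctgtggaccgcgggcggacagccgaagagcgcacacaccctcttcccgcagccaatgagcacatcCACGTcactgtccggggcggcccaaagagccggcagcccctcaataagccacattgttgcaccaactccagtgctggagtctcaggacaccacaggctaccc
P4ha1: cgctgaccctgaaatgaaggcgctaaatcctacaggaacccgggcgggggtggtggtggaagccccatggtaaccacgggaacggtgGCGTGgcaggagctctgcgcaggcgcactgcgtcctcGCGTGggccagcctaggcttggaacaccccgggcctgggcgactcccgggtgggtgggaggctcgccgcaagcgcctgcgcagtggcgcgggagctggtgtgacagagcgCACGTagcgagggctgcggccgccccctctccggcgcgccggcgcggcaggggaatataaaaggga
Ankrd37: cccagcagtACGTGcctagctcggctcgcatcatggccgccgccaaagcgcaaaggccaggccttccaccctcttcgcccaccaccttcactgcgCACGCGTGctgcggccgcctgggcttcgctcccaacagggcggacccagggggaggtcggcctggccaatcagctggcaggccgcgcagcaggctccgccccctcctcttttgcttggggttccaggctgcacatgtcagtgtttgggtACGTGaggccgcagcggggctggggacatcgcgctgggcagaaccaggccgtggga

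Among 27025 genes with such a window in the RefSeq table, 43.8% held at least 1 match, 17.4% at least 2 and 6.68% at least 3. Of the 30 members with an entry, 24 held at least 1 match (80.0%), 19 at least 2 (63.3%) and 9 at least 3 (30%). The motif was found in 16 of 17 hypoxia response genes (94.1%) and 8 of 13 glycolytic enzymes (61.5%). No match lay in the windows of Aldoa, Tpi1, Gpi1, Pkm, Hk1 and Vldlr. Matches overlapping each other were counted once, base composition was not matched, and no test was run. Slc2a3, Bnip3l and Ndrg1 had no entry. In the GENCODE annotation of the same build, the genes described most below lie at chr7:46841475-46855627 (Ldha), chr11:78322968-78327781 (Aldoc), chr6:82725025-82774454 (Hk2), chr9:59656368-59679375 (Pkm), chr10:75859353-75860240 (Mif), chr12:73901375-73947530 (Hif1a), chr10:59323296-59373304 (P4ha1) and chr15:66929318-66969640 (Ndrg1), and UMIs were counted per gene, without a position within it.

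After filtering, 14622 cells remained. The median cell had 521 to 1303 UMIs in a PDOX and 542.5 in Nu-NB, before the doublet step. No 2 samples shared more than 11 cell barcodes. Cells were clustered without the members and named from marker genes, with 4446 myeloid-like, 2902 astrocyte-like, 2194 endothelial-like and 994 OPC-like cells (oligodendrocyte precursor cells). In myeloid-like cells, 12 myeloid markers summed to 28262 to 41982 CPM (counts scaled to the same total in every class and sample) in the PDOXs and 40677 CPM in Nu-NB. Endothelial-like cells held 9229 to 16564 CPM on 10 endothelial markers in the PDOXs and 16991 CPM in Nu-NB, and astrocyte-like cells 27540 to 39967 CPM on 10 astrocyte markers and 40179 CPM in Nu-NB. No marker of these 3 lists was at 0 in its own class in Nu-NB. OPC-like cells held 4770 to 7381 CPM on 6 OPC markers, beside 2054 to 3238 CPM on astrocyte markers. Myeloid markers also reached 5027 CPM in endothelial-like and 5354 CPM in astrocyte-like cells of T233. Mural-like cells are not described, because myeloid markers outweighed mural markers there in T192, T233 and P3. Nu-NB had 35 endothelial-like and 6 OPC-like cells, and P3 had 3 astrocyte-like and 0 OPC-like cells, which set what could be compared.

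Over the members, UMI totals of all kept cells ranged from 98 for Car9 to 11980 for Aldoc, with 460 for Gapdh and 4310 for Ldha. Levels are given in CPM of all UMIs of a class in a sample, and are compared between samples or classes for 1 gene, never between genes. In bulk sums over a class, fewer cells that express a gene and less RNA per cell cannot be told apart.

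Across the TME classes of the PDOXs, some members, such as Aldoc and Hk2, were set apart by class more than the lists were. Others, such as Ldha and Pkm, differed less between classes than the glycolytic list. Astrocyte-like cells had the highest share of UMIs on glycolytic enzymes, at 0.462% ± 0.0853 (SD, n = 6), through Aldoc. Myeloid-like cells had 0.134% ± 0.0340 (n = 7), endothelial-like cells 0.101% ± 0.0207 (n = 7) and OPC-like cells 0.0869% ± 0.0264 (n = 6). Without Aldoc, the share of astrocyte-like cells was 0.114% ± 0.0253. The share on hypoxia response genes lay within a narrow band, at 0.104% ± 0.0128 in endothelial-like, 0.0988% ± 0.0139 in OPC-like, 0.0983% ± 0.0155 in myeloid-like and 0.0774% ± 0.0163 in astrocyte-like cells.

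**Figure D1:**
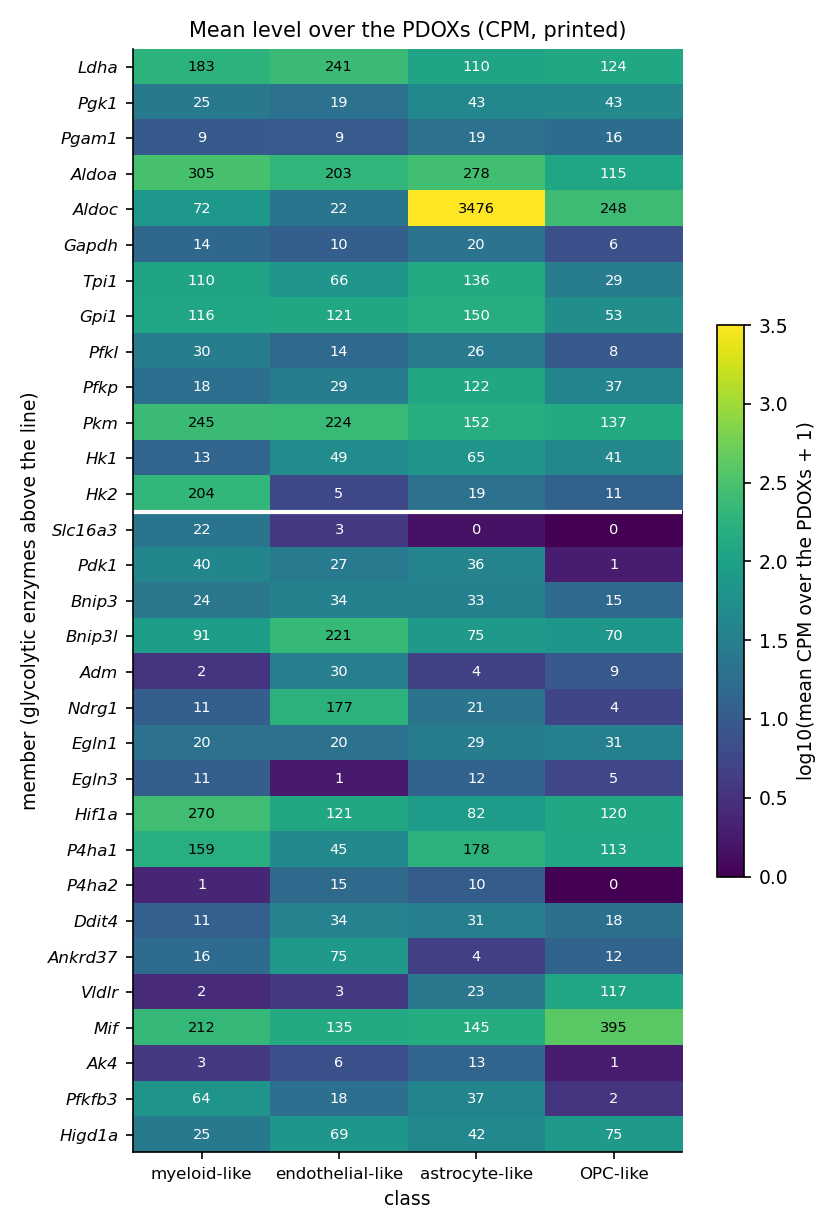
Heat map of the mean level (CPM over the untreated PDOXs, printed in each cell) of the 31 members listed in every table, one row per member, in 4 classes of TME cells, with colour on the scale log10(mean + 1). Aldoc stands out in astrocyte-like cells (3476 CPM), Hk2 and Hif1a in myeloid-like cells, Ndrg1, Ankrd37 and Bnip3l in endothelial-like cells, and Vldlr and Mif in OPC-like cells.

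Among the glycolytic enzymes, Aldoc differed most between classes. Its level in astrocyte-like cells was 2652 CPM in P8, 3693 in T101, 2675 in T192, 3846 in T233, 2982 in T16 and 5007 in P13, and its mean there was 157 times that of endothelial-like cells (3476 against 22.1 CPM). Where P3 lacked a class, ratios of means here and below set 7 PDOXs against 6. Over the same 6 PDOXs the ratio for Aldoc was 139 (3476 against 25.1 CPM). Levels in myeloid-like cells were far lower, from 10.3 CPM in P3 to 176 CPM in P13, so that the classes did not overlap in any PDOX. Hk2, the inducible hexokinase known for muscle and fast-growing cells, had its highest mean in myeloid-like cells (204 CPM) and its lowest in endothelial-like cells (4.76 CPM), a ratio of 42.9. Hk1, the hexokinase of most resting tissues, had the reverse order between myeloid-like and astrocyte-like cells, with means of 12.9 and 65.0 CPM, and was higher in astrocyte-like cells in 6 of 6 PDOXs. Pfkp, the platelet form of phosphofructokinase, was also highest in astrocyte-like cells (122 CPM), above myeloid-like cells in 5 of 6 PDOXs but not in T101, where it rests on 1 UMI in astrocyte-like cells, as was the triosephosphate isomerase gene Tpi1 (136 CPM against 29.2 in OPC-like cells).

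Ldha, Pkm and Aldoa were spread more evenly. Ldha was highest in endothelial-like cells (241 CPM), with 109.8 CPM in astrocyte-like cells. In OPC-like cells it was at 380.4 CPM in T233, on 10 UMIs, and at 25.2 to 135 CPM in the other 5 PDOXs, lower than in astrocyte-like cells in 5 of 6. Pkm, pyruvate kinase, ran from 245 CPM in myeloid-like to 137 CPM in OPC-like cells (1.78 times), and Aldoa, the aldolase found in most tissues, from 305 CPM in myeloid-like to 115 CPM in OPC-like cells.

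Among the hypoxia response genes, the class with the highest mean differed from gene to gene. Vldlr, a lipoprotein receptor, was at 117 CPM in OPC-like and 1.59 CPM in myeloid-like cells (73.9 times, and 91.9 times over the same 6 PDOXs). Ndrg1, a stress-responsive gene of the vessel wall and of myelinating cells, was at 177 CPM in endothelial-like cells and had 2 UMIs in OPC-like cells of all PDOXs, too few for a fold, and Ankrd37 at 74.8 CPM in endothelial-like and 3.6 CPM in astrocyte-like cells (20.8 times, and 22.7 times over the same 6 PDOXs). Pfkfb3, the enzyme that makes the activator of phosphofructokinase, was highest in myeloid-like cells (63.8 CPM) and had 4 UMIs in OPC-like cells of all PDOXs, and so was Hif1a, the oxygen-regulated subunit of HIF1 (270.2 CPM, 3.30 times astrocyte-like cells). P4ha1 had means close to each other in astrocyte-like and myeloid-like cells (178 against 169 CPM over the same 6 PDOXs, higher in astrocyte-like cells in 4 of 6), and its mean in astrocyte-like cells was 3.93 times that of endothelial-like cells. The mitophagy receptor gene Bnip3l was highest in endothelial-like cells (221 CPM), and Higd1a, a mitochondrial survival factor, and Mif, a cytokine, in OPC-like cells (74.8 and 395 CPM). The other 13 members listed in every table had means over the PDOXs under 50 CPM in all 4 classes (Pgk1, Pgam1, Gapdh, Pfkl, Slc16a3, Pdk1, Bnip3, Adm, Egln1, Egln3, P4ha2, Ddit4 and Ak4). Car9, a carbonic anhydrase of pH control, and Slc2a3, a glucose transporter, had 98 and 143 UMIs over all cells and are not described further.

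The same order was counted in each PDOX for members at 50 CPM or more in either class. Between myeloid-like and endothelial-like cells, Hk2, Hif1a, P4ha1 and Pfkfb3 were higher in myeloid-like cells in 7 of 7 PDOXs (4 of 15 members, against 19.1% of all genes at that level), and Bnip3l, Ndrg1, Ankrd37 and Higd1a were higher in endothelial-like cells in 7 of 7 (4 of 15, against 33.1%). Between myeloid-like and astrocyte-like cells, Ldha, Pkm, Hk2 and Hif1a were higher in myeloid-like cells in 6 of 6 PDOXs (4 of 14, against 32%), and Aldoc and Hk1 in astrocyte-like cells (2 of 14, against 23.9%). Between endothelial-like and astrocyte-like cells, Ldha, Bnip3l, Ndrg1 and Ankrd37 were higher in endothelial-like cells (4 of 15, against 35.5%), and Aldoa, Aldoc, Tpi1, Pfkp and P4ha1 in astrocyte-like cells (5 of 15, against 18.1%). OPC-like cells held more Vldlr and Higd1a than myeloid-like cells (2 of 14, against 24.2%), which held more Aldoa, Pkm, Hk2, Hif1a and Pfkfb3 (5 of 14, against 18.5%). OPC-like cells also held more Aldoc, P4ha1, Vldlr and Mif than endothelial-like cells (4 of 14, against 16%) and more Vldlr, Mif and Higd1a than astrocyte-like cells (3 of 14, against 19%). The reverse held for Gpi1, Bnip3l, Ndrg1 and Ankrd37 in endothelial-like cells (4 of 14, against 18.4%) and for Aldoa, Aldoc, Tpi1 and Gpi1 in astrocyte-like cells (4 of 14, against 9.76%). The members' shares lay on both sides of those of all genes. These orders are descriptions without a test, since classes are clusters of cells from the same samples.

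**Figure D2:**
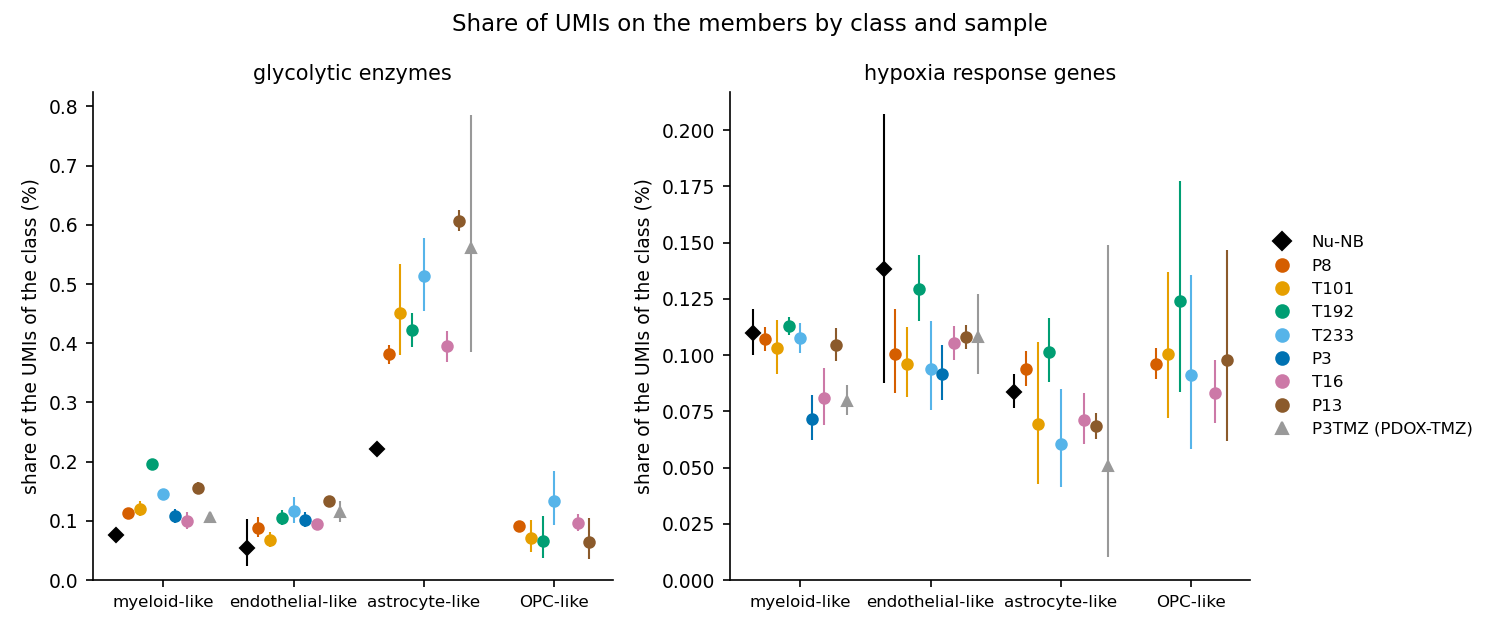
Share of UMIs (%) on glycolytic enzymes (left) and hypoxia response genes (right) in 4 classes of TME cells, one symbol per sample, with exact binomial 95% intervals as bars. In myeloid-like cells all 7 PDOXs lie above Nu-NB for glycolytic enzymes (0.100% to 0.196% against 0.0756%), while for hypoxia response genes 1 of 7 does.

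In myeloid-like cells, glycolytic enzymes took more of the UMIs in every PDOX than in Nu-NB, and hypoxia response genes did not. The glycolytic share was 0.114% in P8, 0.120% in T101, 0.196% in T192, 0.146% in T233, 0.108% in P3, 0.100% in T16 and 0.156% in P13. In Nu-NB it was 0.0756% (exact binomial 95% interval 0.0674% to 0.0845%), so that the groups did not overlap. The hypoxia share was 0.0717% in P3 to 0.113% in T192 with a median of 0.104%, and 0.110% in Nu-NB (0.100% to 0.120%), with 1 of 7 PDOXs above it. Markers of 2 other cell types were also higher in myeloid-like cells of every PDOX, with 10 endothelial markers at 53.5 CPM in Nu-NB (4 of them at 0) and 190 to 403 CPM in the PDOXs, and 6 OPC markers at 31.6 CPM (2 at 0) and 68.9 to 282 CPM, and their part in the shares was not tested. Intervals cover counting error only.

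Of the 31 members in every table, 26 passed the filter on low counts in myeloid-like cells, 12 glycolytic and 14 hypoxia response genes, and none of the 26 passed edgeR's threshold of FDR ≤ 0.01 and |log2FC| ≥ 1 (1 gene in all, 0.0116% of 8634, and 0.0347% at FDR ≤ 0.05). Pgam1, Adm, P4ha2, Vldlr and Ak4 did not pass the filter. At an unadjusted p under 0.05, edgeR had 10 members, 9 of them higher in PDOXs, beside 20% of all genes tested (11.2% higher in PDOXs). The log2FC was above 0 for 20 of the 26, beside 52.4% of all genes. With DESeq2 at the same threshold 2 members were called, Ldha (FDR = 0.00196) and Mif (FDR = 0.00242), among 215 genes (2.49%). At FDR ≤ 0.05 DESeq2 added Aldoa, Tpi1, Gpi1, Pkm and P4ha1, 7 members in all, beside 5.74% of all genes.

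Of the 13 glycolytic enzymes, 5 (Ldha, Aldoa, Gpi1, Tpi1 and Pkm) lay above Nu-NB in every PDOX on more than 2 UMIs in Nu-NB, and none of the 5 passed the threshold by edgeR, while DESeq2 called Ldha. Ldha was at 55.9 CPM in Nu-NB and at 186.6 CPM in P8, 173 in T101, 270.4 in T192, 161 in T233, 162 in P3, 129.9 in T16 and 197 in P13. This was a log2FC of 2.04 (SE 0.4997, FDR = 0.0839 by edgeR). Aldoa was at 119 CPM in Nu-NB and between 175 CPM in T16 and 459.7 in T192, with a median of 313 (log2FC 1.71, SE 0.614, FDR = 0.160). Gpi1, the isomerase that follows hexokinase, was at 26.7 CPM in Nu-NB and from 49.98 in T16 to 196 in T192, with a median of 107 (log2FC 2.49, SE 0.757, FDR = 0.115). In these 3 enzymes every PDOX lay above Nu-NB, T16 was the lowest PDOX and T192 the highest.

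Tpi1 had the same order, at 26.7 CPM in Nu-NB and 45.0 (T16) to 173 CPM (T192) in the PDOXs, with a median of 126 (log2FC 2.39, SE 0.723, FDR = 0.114). Pkm was at 72.9 CPM in Nu-NB and 119.9 (T16) to 343 CPM (T192) in the PDOXs, with a median of 220.5 (log2FC 2.10, SE 0.642, FDR = 0.117). Groups did not overlap in either. Pgk1, phosphoglycerate kinase, and Pfkp were also above Nu-NB in 7 of 7 PDOXs, but rested on 2 UMIs each in Nu-NB. In all, 10 of 26 members, 7 of them glycolytic enzymes, lay above Nu-NB in every PDOX, beside 15.6% of all genes tested, and 4 lay below it in every PDOX (Gapdh, Pdk1, Bnip3l and P4ha1), beside 34.4%.

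**Figure D3:**
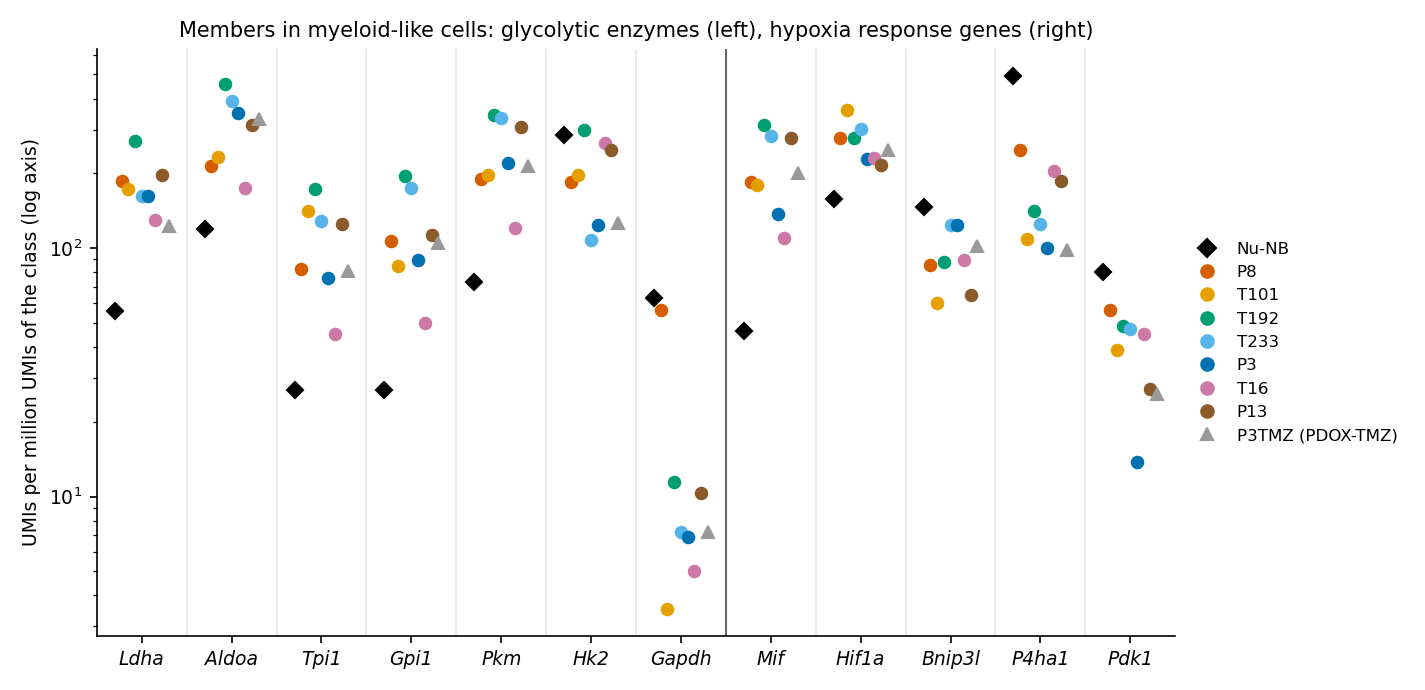
Levels of 12 members in myeloid-like cells (CPM, log axis), 7 glycolytic enzymes and 5 hypoxia response genes, with Nu-NB as a black diamond, 7 untreated PDOXs as coloured circles and P3 after TMZ as a grey triangle. All PDOXs lie above Nu-NB for Ldha, Aldoa, Tpi1, Gpi1, Pkm, Mif and Hif1a, and all lie below it for Gapdh, Bnip3l, P4ha1 and Pdk1.

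Not all of the chain was higher. Hk2, at the entry of glycolysis, was at 284 CPM in Nu-NB and 108 (T233) to 299 CPM (T192) in the PDOXs, with a median of 197 and 1 of 7 above Nu-NB. Pfkl, the liver form of phosphofructokinase, was at 31.6 CPM in Nu-NB and 9.996 to 69.6 CPM in the PDOXs, which overlapped it. Hk1 was above Nu-NB in 1 of 7. Aldoc was at 24.3 CPM in Nu-NB and 10.3 to 176 CPM in the PDOXs, higher in 4 of 7 (log2FC 1.88, SE 1.32, FDR = 0.442, and 2.89 with classes taken from the markers of each cell). It was highest in P13, T16 (149.9 CPM) and T192 (90.4 CPM), the PDOXs in which 10 astrocyte markers were also highest in myeloid-like cells (1008, 1309 and 1055 CPM, against 196 to 681 in the other 4 and 1439 in Nu-NB). The part of such markers in the Aldoc values was not tested.

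The hypoxia response genes lay on both sides of Nu-NB. Mif was at 46.2 CPM in Nu-NB and at 185 CPM in P8, 180 in T101, 312 in T192, 282 in T233, 138 in P3, 110.0 in T16 and 277 in P13 (log2FC 2.54, SE 0.670, FDR = 0.0839 by edgeR). Hif1a was at 158 CPM in Nu-NB and 216 (P13) to 359.6 CPM (T101) in the PDOXs, with a median of 278 (log2FC 1.11, SE 0.445, FDR = 0.196). Neither overlapped Nu-NB. Egln3, an oxygen sensor that is itself a target of HIF1, had 0 UMIs in Nu-NB, which allows up to 7.29 CPM, and a mean of 10.6 CPM in the PDOXs, at least 1.46-fold higher.

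P4ha1 lay on the other side. It was at 493.4 CPM in Nu-NB and at 248.6 CPM in P8, 109 in T101, 142 in T192, 126 in T233, 99.9 in P3, 205 in T16 and 186 in P13 (log2FC −1.32, SE 0.397, FDR = 0.114). Every PDOX lay below Nu-NB. The highest PDOX was P8, which shares the FACS sort and the symbol release with Nu-NB, and over all kept cells Nu-NB (379 CPM) and P8 (204 CPM) also stood above the other 6 PDOXs (60.7 to 139 CPM), so that the part of the sort and the symbol release in the size of this difference cannot be told apart from that of the tumor. Bnip3l was at 146 CPM in Nu-NB and 59.9 (T101) to 124 CPM (P3) in the PDOXs, below it in 7 of 7 (log2FC −0.34, SE 0.478, FDR = 0.728), and Pdk1, the kinase that shuts pyruvate dehydrogenase, was at 80.2 CPM against 13.8 to 56.3 CPM. Pfkfb3 was at 70.5 CPM in Nu-NB and 44.8 to 102 CPM in the PDOXs, above it in 2 of 7 (log2FC 0.19, and 0.05 to 1.67 over 16 other settings, the highest among cells with at least 500 genes). The log2FC of this comparison stands 0.33 above the log2 ratio of CPM (the median over 5817 genes), so that the order of CPM and the sign of a log2FC near 0 can differ, as for Pfkfb3. Slc16a3, a lactate exporter, Bnip3, Ndrg1, Egln1, Ddit4, Ankrd37 and Higd1a overlapped Nu-NB at low levels.

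P8 and Nu-NB shared the FACS sort and the symbol release, and their ratio was taken on its own with counting intervals. It was 3.34 for Ldha (2.18 to 5.36), 4.0 for Gpi1 (2.18 to 8.19), 3.08 for Tpi1 (1.66 to 6.34), 2.60 for Pkm (1.78 to 3.93), 1.80 for Aldoa (1.33 to 2.48), 4.01 for Mif (2.52 to 6.77) and 1.76 for Hif1a (1.35 to 2.33). For P4ha1 it was 0.504 (0.423 to 0.602) and for Bnip3l 0.589 (0.429 to 0.816). All of these directions were those of the other 6 PDOXs.

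Gapdh, glyceraldehyde-3-phosphate dehydrogenase, split the samples by their tables. In myeloid-like cells it was at 63.2 CPM in Nu-NB, 56.3 in P8 and 3.53 to 11.4 CPM in the other 6 PDOXs, and the ratio of P8 to Nu-NB was 0.891 (0.566 to 1.45). Over all kept cells it was at 106 CPM in Nu-NB, 61.0 in P8 and 3.08 to 10.2 CPM in the other 7 samples, TMZ included. In the mouse annotation, 95.1% of the 30-base stretches in the last 500 bases of Gapdh transcripts are shared with other genes, 102 of them pseudogenes among 107 genes that share 50 or more. Gapdh values between the tables are therefore uncertain, and the part of the sort, the symbol release and read assignment in them cannot be told apart. Mif (86.6% shared, with 5 pseudogenes), Pfkp (100% shared with 1 other gene) and Bnip3 (80.5% with 2 genes) carry a like limit. Smaller parts were shared for Aldoa (25.3%), Gpi1 (19.5%), Ndrg1 (12.95%, with 1 other gene sharing 50 or more), Pgk1 (11.3%, with 1 pseudogene), Ankrd37 (8.28%) and Tpi1 (4.03%), while Ldha, Pkm, Aldoc, Hif1a and P4ha1 shared no such stretch. Without Gapdh, Pgk1 and Pgam1, a choice made after seeing the data, the glycolytic share of myeloid-like cells was 0.130% ± 0.0339 in the PDOXs and 0.0673% in Nu-NB, higher in 7 of 7.

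The makeup of the myeloid-like class differed with the tumor. In Nu-NB 91.0% of its cells lay in a cluster led by P2ry12, a microglial receptor lost on activation, while 3.48% (T101) to 59.4% (P13) did in the PDOXs, and 85.3% of those of T101 lay in a cluster led by the monocyte gene Ly6c2. The leading genes of that cluster also included S100a8, Igkc, Ccl5 and H2-Ab1, and its cells are not called monocytes here. By mapping to reference data, the paper found mostly microglia among the myeloid cells of the PDOXs and describes monocyte-derived cells in T101 as rare. The cause of this difference was not tested. In Nu-NB, 8 homeostatic microglia genes summed to 17046 CPM and 10 activation genes to 306 CPM, while the PDOXs held 2715 to 7497 CPM and 6156 to 22435 CPM. Within the P2ry12-led cluster alone, Ldha was at 62.4 CPM in Nu-NB and 84.6 to 156 CPM in the PDOXs (7 of 7 above), the glycolytic share at 0.0743% and 0.0425% to 0.131% (6 of 7 above), and P4ha1 at 518 and 73.0 to 425 CPM (7 of 7 below). Pkm, Aldoa and Gpi1 were above Nu-NB there in 6 of 7 PDOXs and Mif, Hif1a and Tpi1 in 5 of 7, and the hypoxia share lay below Nu-NB (0.115%) in 7 of 7, at 0.0365% to 0.113%. This cluster held only 13 cells in T101.

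Other genes of the same pathways were counted from lists. By edgeR, none of them passed the threshold either. Of 12 glycolytic members tested, the median log2FC was 1.84, of 14 hypoxia members 0.67 (0.46 with Egln3, at 0 in Nu-NB, at its bound), and of all 8634 genes 0.06 as fitted. Of 11 tested genes of another list of glycolysis and pyruvate use, 3 were higher and 0 lower at an unadjusted p under 0.05, with a median of 0.44. In every PDOX 2 of them lay above Nu-NB and 3 below it, beside 15.6% and 34.4% of all genes, with Eno1 among the 2 above, enolase (63.2 CPM in Nu-NB, mean 139.8 CPM, log2FC 1.51, SE 0.664, FDR = 0.227). Of 15 tested hypoxia genes outside the members, 3 were higher and 0 lower (median 1.08 as fitted, and 0.83 with genes at 0 in Nu-NB at their bound), and 3 lay above and 4 below Nu-NB in every PDOX, beside the same 15.6% and 34.4%. Bhlhe40, a transcriptional repressor induced by HIF1, had 0 UMIs in Nu-NB and a mean of 58.0 CPM, at least 7.95-fold higher, and Anxa2, a membrane-binding protein, was at 12.2 and 59.9 CPM (FDR = 0.140). The first list took 0.0422% ± 0.00684 of UMIs in the PDOXs and 0.0377% in Nu-NB (5 of 7 above) and the other hypoxia genes 0.0505% ± 0.00718 and 0.0399% (6 of 7 above).

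Genes of the citrate cycle and the respiratory chain lay mostly above Nu-NB as well, and none passed the threshold. All 20 were tested, 10 were higher (beside 11.2% of all genes) and 0 lower at an unadjusted p under 0.05, and the log2FC was above 0 for 19 of 20, with a median of 1.16. In every PDOX 12 lay above Nu-NB (beside 15.6%) and 1 below it (beside 34.4%). Cox4i1, a subunit of cytochrome c oxidase, was at 214 CPM in Nu-NB and at a mean of 887 CPM in the PDOXs (log2FC 2.40, SE 0.542, FDR = 0.0839). Their summed share was 0.354% ± 0.0578 in the PDOXs and 0.152% in Nu-NB. Genes that respond to tissue dissociation took 0.586% ± 0.221 of UMIs in the PDOXs and 0.685% in Nu-NB, above it in 2 of 7, with 2 of 11 higher and 0 lower at an unadjusted p under 0.05, and their part in these results was not tested.

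In astrocyte-like cells Aldoc was higher in every PDOX than in Nu-NB, and most other members lay nearer to it. Aldoc was at 1126 CPM in Nu-NB and at 2652 CPM in P8, 3693 in T101, 2675 in T192, 3846 in T233, 2982 in T16 and 5007 in P13. All 6 PDOXs lay above Nu-NB, and the lowest was 2.36 times as high (P8, counting interval 2.15 to 2.58). The log2FC was 1.64 (SE 0.583, FDR = 0.362 by edgeR, 0.0356 by DESeq2) and ran from 0.66 to 1.68 over 15 other settings. Within the largest astrocyte-like cluster it was at 1298 CPM in Nu-NB and 2644 to 5630 CPM in the PDOXs (6 of 6 above).

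**Figure D4:**
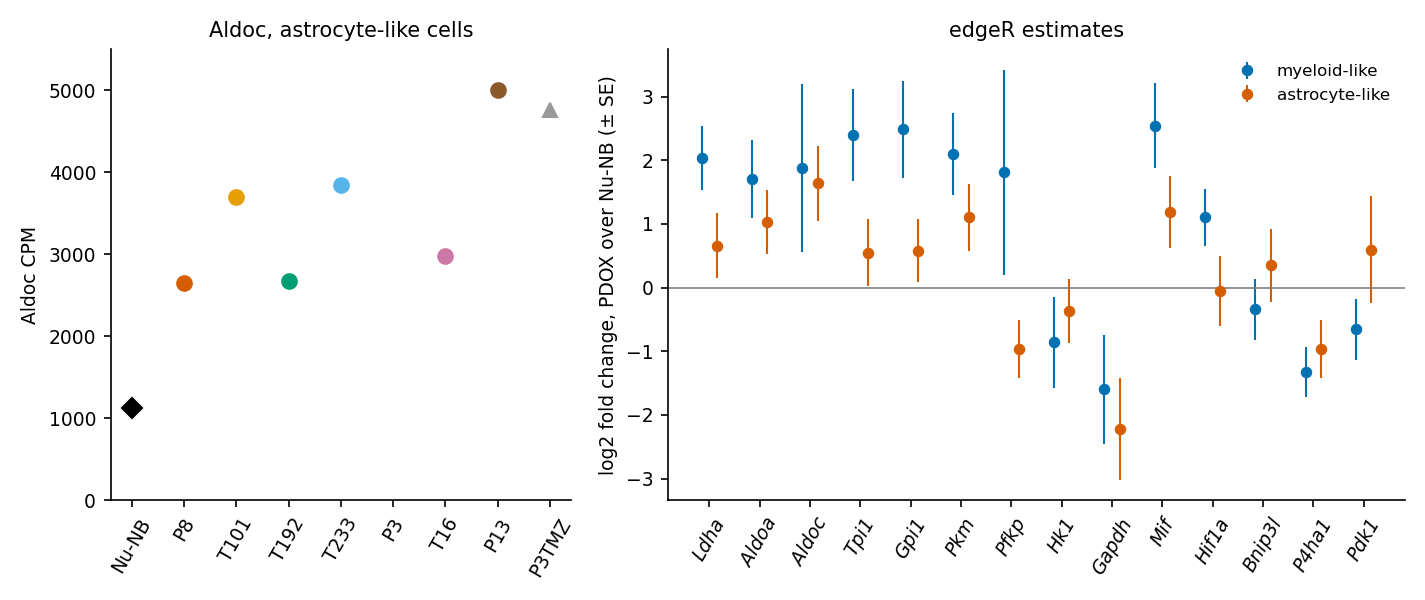
Left, Aldoc in astrocyte-like cells (CPM) of Nu-NB, 6 untreated PDOXs and P3 after TMZ (grey triangle, 13 cells), one point per sample. Right, log2FC of PDOXs against Nu-NB by edgeR with its SE for 14 members in myeloid-like and astrocyte-like cells. Aldoc lies at 2652 to 5007 CPM in the PDOXs and at 1126 CPM in Nu-NB. No member passed the threshold by edgeR, and Ldha and Mif in myeloid-like cells did by DESeq2.

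The glycolytic share of astrocyte-like cells was 0.221% in Nu-NB (0.210% to 0.234%) and 0.381% (P8) to 0.607% (P13) in the PDOXs, with all 6 above it. The mean lay 0.240 percentage points above Nu-NB, but 0.0581 points above it among cells with at least 500 genes and 0.145 points with classes taken from the markers of each cell. Without Aldoc, also a choice made after seeing the data, it was 0.109% in Nu-NB and 0.114% ± 0.0253 in the PDOXs, above it in 3 of 6. The hypoxia share was 0.0838% in Nu-NB (0.0767% to 0.0914%) and 0.0603% (T233) to 0.101% (T192) in the PDOXs, above it in 2 of 6.

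Of the 24 members tested in astrocyte-like cells, 13 glycolytic and 11 hypoxia response genes, none passed the threshold, as none of 5690 genes did (0%). At an unadjusted p under 0.05, 6 members passed, 3 of them higher (Aldoc, Pkm and Mif) and 3 lower (Gapdh, Pfkp and P4ha1), beside 11.4% of all genes (6.63% higher). The log2FC was above 0 for 15 of 24, beside 52.4% of all genes. DESeq2 called 1 gene in all at the threshold (0.0176%), which was no member, and at FDR ≤ 0.05 Aldoc alone among the members (0.492% of all genes). In all, 9 members lay above Nu-NB in 6 of 6 PDOXs, beside 13.8% of all genes. These were Ldha, Aldoa, Aldoc, Gpi1, Pkm, Bnip3, Egln1, Mif and Higd1a. Below Nu-NB in every PDOX were 3 (Gapdh, Pfkp and P4ha1), beside 19.3%. Within the largest astrocyte-like cluster alone, Higd1a was at 45.2 CPM in Nu-NB and 33.6 to 43.6 CPM in the PDOXs, above it in 0 of 6. Aldoa was above Nu-NB there in 5 of 6 and the rest of the 9 in 6 of 6, with Egln1 at only 2.26 CPM in Nu-NB.

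Markers of myeloid cells were also higher in astrocyte-like cells of every PDOX, with 12 of them summing to 592 CPM in Nu-NB, 706 in P8, 1253 in T101, 4603 in T192, 5354 in T233, 1045 in T16 and 1227 in P13, none of them at 0 in Nu-NB. So were 10 endothelial markers (51.0 CPM in Nu-NB, with 4 at 0, and 76.6 to 314 CPM in the PDOXs) and 10 mural markers (107 CPM, with 2 at 0, and 112 to 273 CPM). Their part in the values below was not tested. Pkm was at 72.3 CPM in Nu-NB and 98.9 (T101) to 207 CPM (T192) in the PDOXs, with a median of 157 (log2FC 1.10, SE 0.524, FDR = 0.436). Aldoa was at 138 CPM and 198 (T101) to 358 CPM (T192), with a median of 273 (log2FC 1.04, SE 0.502, FDR = 0.440). Ldha and Gpi1 were nearer to Nu-NB, at 72.3 against 75.4 to 156.5 CPM and at 100.3 against 105 to 197 CPM. Pfkp was at 263 CPM in Nu-NB and lower in 6 of 6 PDOXs, from 32.98 CPM in T101 to 172 in T192, with a median of 121 (log2FC −0.96, SE 0.457, FDR = 0.435, and −1.61 among cells with at least 500 genes).

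Among the hypoxia response genes of astrocyte-like cells, Mif was at 60.8 CPM in Nu-NB and 94.3 (T233) to 247 CPM (T192) in the PDOXs, with a median of 117 (log2FC 1.19, SE 0.562, FDR = 0.435). P4ha1 was at 372 CPM in Nu-NB and 113 (T233) to 295 CPM (P8), with a median of 150.3 (log2FC −0.96, SE 0.458, FDR = 0.436). Mif thus lay above and P4ha1 below Nu-NB in both classes, but these comparisons share the Nu-NB sample and are not separate evidence. Hif1a overlapped Nu-NB (97.0 CPM), with 0 UMIs in T101, where 1 UMI is 32.98 CPM, and 85.6 to 122 CPM in the other 5 PDOXs, and its log2FC of −0.05 changed sign with the settings. Bnip3l was at 52.6 CPM in Nu-NB and 41.4 to 132 CPM in the PDOXs, above it in 4 of 6.

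Gapdh in astrocyte-like cells was at 133 CPM in Nu-NB, 88.3 in P8 and 0 to 18.9 in the other PDOXs (log2FC −2.22, FDR = 0.362, and 0.00368 without P8), the same split as in myeloid-like cells. The median log2FC was 0.55 over 13 glycolytic members, 0.41 over 11 hypoxia members and 0.05 over all genes. Of the other lists, 1 of 10 genes of glycolysis and pyruvate use was lower and 0 higher at an unadjusted p under 0.05, of 10 other hypoxia genes 1 was higher and 1 lower, and of 20 genes of the citrate cycle and the respiratory chain 6 were higher and 0 lower, with 0 past the threshold. The first list took 0.164% ± 0.00942 of UMIs in the PDOXs and 0.149% in Nu-NB (6 of 6 above) and the other hypoxia genes 0.0839% ± 0.0221 and 0.167% (0 of 6 above). Vegfa, the vessel growth factor induced by HIF1, was at 1185 CPM in Nu-NB and a mean of 307 CPM in the PDOXs, below Nu-NB in 6 of 6 (log2FC −1.93, SE 0.545, FDR = 0.329, and 0.0118 without P8). Genes that respond to dissociation took 0.0703% ± 0.0229 of UMIs in the PDOXs and 0.0427% in Nu-NB, with 5 of 8 higher and 0 lower at an unadjusted p under 0.05. Their part in these results was not tested.

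Endothelial-like cells of every PDOX held Ldha, Pkm and Gpi1 at 80.5 CPM or more, but the Nu-NB values rest on 16656 UMIs of 35 cells, with 0 to 5 UMIs per member. Of these 35 cells, 34 lay in the Slco1a4 cluster described below and 1 in the Apln cluster, while in the PDOXs the counts were 109 and 7 in T233, 227 and 24 in T192 and as many as 58 and 199 in P3, and the part of this makeup in the comparison was not tested. Of 20 members tested, 9 glycolytic and 11 hypoxia response genes, none passed edgeR's threshold (0% of 6332 genes), DESeq2 called 2 genes in all (0.0316%), none of them a member, and 3 members had an unadjusted p under 0.05 (Ldha, Gpi1 and Pkm, all higher, beside 12.9% of all genes). At FDR ≤ 0.05 DESeq2 held 0.569% of all genes and no member. Above Nu-NB in every PDOX were 7 members, beside 31.5% of all genes, and below it 7, beside 38.4%, and the log2FC was above 0 for 14 of 20, beside 66% of all genes. The depth allows few statements about single members against Nu-NB. Ldha had 0 UMIs in Nu-NB, which allows up to 180.1 CPM, and 167 (T101) to 305 CPM (T192) in the PDOXs, with a median of 245, so that the mean was at least 1.34-fold higher. Gpi1 also had 0 UMIs there and 80.5 to 153 CPM in the PDOXs, under that limit, and Pkm had 1 UMI in Nu-NB and 149 to 361 CPM in the PDOXs. Other glycolytic enzymes lay on the other side, with Tpi1 and Pfkl below Nu-NB in every PDOX. Tpi1 had a mean of 65.6 CPM in the PDOXs and a log2FC of −1.80 to −1.10 over 15 other settings.

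The glycolytic share of endothelial-like cells was 0.0681% (T101) to 0.133% (P13) in the PDOXs, with a median of 0.102%, and 0.0540% in Nu-NB with an interval of 0.0247% to 0.103%, which holds the values of 4 PDOXs. The hypoxia share was 0.0916% (P3) to 0.129% (T192) in the PDOXs and 0.138% in Nu-NB (0.0876% to 0.207%), which holds all 7. Neither difference was detectable at this depth for most PDOXs, although 7 of 7 lay above Nu-NB in the first and 0 of 7 in the second. The mean hypoxia share differed from Nu-NB by −0.0346 percentage points, and by −0.0148 points without the doublet step. Ndrg1 and Ankrd37 had 4 UMIs each in Nu-NB (240.2 CPM). In the PDOXs, Ndrg1 was at 165 CPM in P8, 179.6 in T101, 301 in T192, 245 in T233, 86.7 in P3, 84.9 in T16 and 179.7 in P13, and Ankrd37 between 33.01 and 121 CPM. Bnip3l had 4 UMIs in Nu-NB and 85.9 (P13) to 297 CPM (T192) in the PDOXs. The log2FC of this comparison stood 0.93 above the log2 ratio of CPM, with a median of 0.71 over all genes, and no median is given for the members, since 5 of the 9 glycolytic members tested were at 0 in Nu-NB.

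Of the other lists in endothelial-like cells, at an unadjusted p under 0.05, 0 of 7 genes of glycolysis and pyruvate use were higher and 1 lower, 1 of 11 other hypoxia genes was higher and 0 lower, and 12 of 20 genes of the citrate cycle and the respiratory chain were higher and 0 lower, beside 11.5% of all genes higher. None passed the threshold. The other genes of glycolysis and pyruvate use took 0.165% ± 0.0506 of UMIs in the PDOXs and 0.222% in Nu-NB, above it in 1 of 7, against the 7 of 7 of the glycolytic members, and the other hypoxia genes 0.139% ± 0.0198 and 0.210%, above it in 0 of 7. Those of the citrate cycle and the respiratory chain took 0.509% ± 0.0904 of UMIs in the PDOXs and 0.240% in Nu-NB, above it in 7 of 7. Genes that respond to dissociation took 0.193% ± 0.0685 and 0.156%, above it in 4 of 7, with 3 of 9 higher and 0 lower at an unadjusted p under 0.05, and their part was not tested.

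Within the PDOXs, endothelial-like cells fell into 2 clusters, called here the Slco1a4 cluster and the Apln cluster. The first was led by Gkn3, with Abcb1a and Slco1a4, transporters of the blood-brain barrier, among its 10 leading genes. The other was led by Scgb3a1, with Cd93, Kdr and Apln, genes known from growing vessels, among its 10 leading genes. Hypoxia response genes took less of the UMIs in the cells of the Apln cluster in 6 of 6 PDOXs with at least 10 cells of both kinds. The shares in cells of the Apln and the Slco1a4 cluster were 0.0889% and 0.104% in P8, 0.0497% and 0.108% in T101, 0.0832% and 0.149% in T192, 0.0867% and 0.121% in P3, 0.0970% and 0.128% in T16, and 0.0914% and 0.158% in P13. The difference was smaller without Ndrg1. With that gene left out, a choice made after seeing the data, the mean share was 0.0780% ± 0.0177 in the Apln and 0.0920% ± 0.00865 in the Slco1a4 cluster, lower in the Apln cluster in 5 of 6, and 3 PDOXs had shares close to each other, with 0.0828% and 0.0837% in P3, 0.0962% and 0.0981% in T16, and 0.0902% and 0.0898% in P13. Glycolytic shares overlapped, at 0.101% ± 0.0258 and 0.0949% ± 0.0154, higher in cells of the Apln cluster in 4 of 6. The clusters were made without the members, but from the same cells, and this is a description without a test.

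Among the members, Ndrg1 had the largest gap between the mean levels of both clusters. It was lower in cells of the Apln cluster in 5 of 6 PDOXs, with 31.1 against 217 CPM in T101, 14.1 against 422 in T192, 38.5 against 375 in P3, 7.73 against 295 in T16 and 12.3 against 679 in P13, but 185 against 158 CPM in P8, where the Apln cluster held 22 cells. Bnip3, the paralog of Bnip3l, was lower in cells of the Apln cluster in 6 of 6, at a mean of 10.02 against 57.0 CPM, with 0 CPM there in P8 and T101. The Apln cluster held 22 cells in P8, 34 in T101 and 24 in T192. The lowest level above 0 of any member in these cells was 37.1, 31.1 and 14.1 CPM, so that the values of Ndrg1, Bnip3 and Adm there rest on few UMIs. Ankrd37 was lower in 5 of 6 (46.9 against 133 CPM) and Bnip3l in 5 of 6 (178 against 244 CPM). Gpi1 was higher in cells of the Apln cluster in 6 of 6 (144 against 90.8 CPM), Mif in 4 of 6 (146 against 92.0 CPM), and Adm, adrenomedullin, a vasodilator peptide, in 4 of 6, with 222 against 22.6 CPM in P8 but 0 to 47.6 against 0 to 41.7 CPM in the other 5. Of 15 members at 50 CPM, Gpi1 was higher in every PDOX and Bnip3 lower in every PDOX, beside 8.22% and 8.18% of all genes at that level. Cells of the Apln cluster had more UMIs per cell, for example a median of 3495 against 970.5 in P13, and the part of this in the values was not tested.

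**Figure D5:**
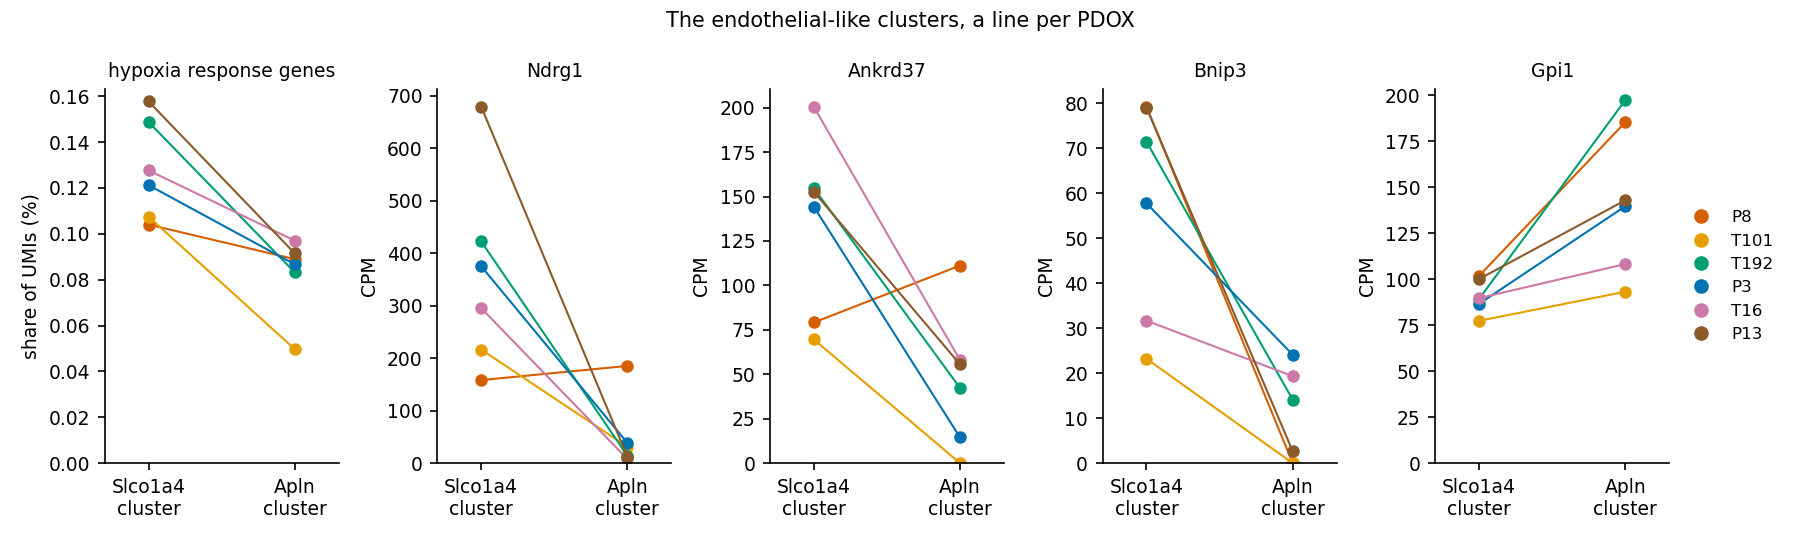
Share of UMIs on hypoxia response genes (%) and levels (CPM) of Ndrg1, Ankrd37, Bnip3 and Gpi1 in endothelial-like cells of the Slco1a4 and the Apln cluster, with a line joining both values of each of 6 PDOXs. The hypoxia share and Bnip3 are lower in cells of the Apln cluster in 6 of 6 PDOXs, and Gpi1 is higher in 6 of 6. Bnip3 is at 0 CPM in the Apln cluster of P8 and T101. Without Ndrg1 the share is lower in 5 of 6.

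Myeloid-like cells of the PDOXs were also split by 10 activation genes, none of them a member, after each cell had been thinned to 500 UMIs. Cells with at least 2 such UMIs (activated) were set against cells with none in the 5 PDOXs with at least 10 cells of both kinds. The glycolytic share in activated and other cells was 0.108% and 0.0942% in P8, 0.118% and 0.155% in T101, 0.189% and 0.0829% in T192, 0.0978% and 0.0800% in T16, and 0.174% and 0.139% in P13, higher in activated cells in 4 of 5. The value of T192 in other cells rests on 8 UMIs, and those of the other PDOXs on 15 to 104. The hypoxia share was 0.106% ± 0.0156 and 0.0933% ± 0.0287, also higher in 4 of 5, with T101 on the other side in both. The cluster led by the monocyte gene Ly6c2 held a smaller part of the activated than of the other cells in 5 of 5, from 85.7% against 90.9% in T101 to 1.74% against 54.5% in T192, and its part in these values was not tested.

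Only 4 members had enough UMIs for the test after thinning, and none of the 4 passed FDR ≤ 0.05 by edgeR with the sample as a block (12 of 750 genes did, 1.6%, and 14 by DESeq2, 1.87%, none of them a member), while the log2FC was above 0 for 3 of 4, beside 49.5% of all genes. Pkm had an unadjusted p under 0.05, as 14.7% of all genes did. It was at 230.3 against 94.2 CPM in P8, 256 against 206 in T101, 339 against 207 in T192, 112 against 53.3 in T16 and 408 against 133 in P13 (log2FC 1.14, SE 0.361, FDR = 0.158). The values of the other cells rest on 2 UMIs in P8, 4 in T101, 2 in T192, 1 in T16 and 10 in P13. Activated cells held more in 5 of 5, and over 11 other settings the log2FC ran from 0.32 (split by 8 homeostatic genes) to 1.57 and the FDR from 0.0154 (without thinning) to 0.517, with 0.463 without the sample as a block. Aldoa was also higher in 5 of 5 (log2FC 0.57, SE 0.354, FDR = 0.505, and 0.28 to 1.11 over 11 other settings). Its values in the other cells rest on 2 UMIs in P8, 4 in T101, 1 in T192, 2 in T16 and 19 in P13. Hif1a was higher in 4 of 5 (log2FC 0.50, SE 0.329, FDR = 0.512) and Hk2 in 3 of 5 (log2FC −0.30, SE 0.328, FDR = 0.749). Ldha, under the filter, was higher in activated cells in 4 of 5, at a mean of 191 against 137 CPM, where the other cells held 13 UMIs in P13 and 2 in each other PDOX.

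After TMZ, the P3 PDOX was compared with untreated P3, with 1 sample on either side and no test, and intervals that cover counting error only. In myeloid-like cells (322 against 218 cells), the glycolytic share was 0.107% against 0.108%, a ratio of 0.995 (0.870 to 1.14), and the hypoxia share 0.0798% against 0.0717%, a ratio of 1.11 (0.947 to 1.31). Of 14 members with at least 20 UMIs, 2 were at least 2-fold higher after TMZ (beside 5.99% of all such genes) and 0 at least 2-fold lower (4.81%). These were Pgk1 and Aldoc, each on 3 UMIs in P3, with ratios of 2.65 (0.779 to 14.0) and 2.79 (0.826 to 14.6). The interval of Mif lay just above 1 (ratio 1.45, 1.02 to 2.12), and Ldha was at 122 against 162 CPM (0.756, 0.523 to 1.10). The makeup of this class differed too, with 15.6% of its cells in P3 and 36.6% after TMZ in the P2ry12-led cluster, and 50% and 24.2% in a cluster led by Mlxipl. Mural markers in the class summed to 444 CPM in P3 and 61.9 CPM after TMZ, and endothelial markers to 376 and 164 CPM, and the part of these differences in the ratios was not tested.

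In endothelial-like cells (126 against 257 cells), the glycolytic share was 0.115% after TMZ and 0.102% in P3 (ratio 1.13, 0.916 to 1.38), and the hypoxia share 0.108% and 0.0916% (1.18, 0.953 to 1.46). Of 12 members with at least 20 UMIs, 4 were at least 2-fold higher (6.18% of all such genes) and 1 at least 2-fold lower (8.57%). Tpi1 was at 139 against 37.1 CPM (ratio 3.74, 1.61 to 9.39), Ndrg1 at 175 against 86.7 CPM (2.02, 1.08 to 3.82), Ankrd37 at 102 against 33.01 CPM (3.10, 1.21 to 8.53) and Ddit4, an inhibitor of mTORC1 induced by stress, at 117 against 24.8 CPM (4.72, 1.76 to 14.7). Higd1a was at 36.6 against 119.7 CPM (0.305, 0.0923 to 0.798), and Ldha at 373 against 202 CPM (1.84, 1.22 to 2.79). The makeup of the class differed as well, with 50 cells of the Apln cluster and 76 of the Slco1a4 cluster after TMZ against 199 and 58 in P3, and Ndrg1 and Ankrd37 were lower in the cells of the Apln cluster of P3 (38.5 against 375 CPM and 14.4 against 144 CPM). The part of this makeup in the ratios was not tested. Astrocyte-like cells were not compared, with 13 cells after TMZ and 3 in P3.

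In the smaller classes the shares are descriptions. Choroid plexus-like cells held 0.178% ± 0.0442 of UMIs on glycolytic enzymes in 6 PDOXs and 0.208% in Nu-NB, above it in 1 of 6 (0.165% ± 0.0339 and 0.137% without Gapdh, Pgk1 and Pgam1, above it in 4 of 6), and 0.0986% ± 0.0162 and 0.0813% on hypoxia response genes, above it in 6 of 6. Cycling cells held 0.127% ± 0.0600 on glycolytic enzymes in 7 PDOXs and 0.0660% in Nu-NB, above it in 6 of 7. Ciliated ependymal-like cells of 3 PDOXs held 0.151% ± 0.0494 on glycolytic enzymes and 0.110% ± 0.0270 on hypoxia response genes. In a pair of clusters that the markers did not name as a whole, of 1029 and 668 cells without a cell of Nu-NB or P8, the glycolytic share was 0.0297% and 0.0329%. A subset of 160 of the 1029 cells was named cycling-like, and 94.3% of the smaller cluster came from T101. Leading genes of its subsets included Mdm2, Frs2, Cnot2 and Egfr, and those of the larger cluster Gm2178, Gm17511 and Tubb3. Whether the cells of this pair belong to the mouse TME was not tested, and their shares are not those of a TME class. Another cluster without a name, of 167 cells with 159 from Nu-NB and P8, had a glycolytic share of 0.0936%.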

How the data were processed

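Mouse-derived cells of 7 untreated PDOXs, 1 TMZ-treated PDOX and 1 nude mouse brain were profiled by Drop-seq, a droplet method that counts transcripts by unique molecular identifiers (UMIs). The authors deposited a table of UMI counts per gene and cell for each sample. The submitters' processing notes name bcl2fastq 2.0, STAR and GRCm38 (mm10), and the version of STAR is not given in the sources used here. The tables held 1294068 to 8410580 UMIs per PDOX and 1519323 in Nu-NB. Samples of the series other than these 9 were not analysed here.

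Barcodes under 200 genes or above 30% mitochondrial UMIs were left out, and the 5% with the highest doublet scores by scrublet were removed in each sample. The 12580 symbols in every table, without the members, were clustered with scanpy 1.11.5 and leidenalg 0.10.2 (2000 variable genes, 30 components, 20 neighbors, resolution 1). Clusters were named from marker lists by a naming rule that was revised with the clusters in view. The members and lists were chosen with earlier results of these data known.

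UMIs were summed per class and sample with at least 10 cells and tested with edgeR 4.0.16 (quasi-likelihood, TMM, filterByExpr) in R 4.3.3, with Benjamini-Hochberg adjustment (FDR). PDOXs and Nu-NB were compared at FDR ≤ 0.01 and |log2FC| ≥ 1, after the study's threshold, and activated and other cells at FDR ≤ 0.05 with the sample as a block. Both kinds of cell come from the same PDOX, and in the check of this pairing deviations from the group means correlated within every PDOX (r of 0.244 to 0.553 over 1294 genes). DESeq2 1.42.0 was an alternative, and all scripts that test genes were tested on simulated data. Shares have exact binomial and ratios of 2 samples exact conditional binomial intervals (95%, scipy 1.17.1). An upper limit for 0 UMIs stands for 3 UMIs. Intervals and limits cover counting error only. Named members are, in each comparison, up to 6 of each list with the largest |log2FC| at a mean of 50 CPM or more, and across classes those with the largest ratio at 50 CPM or more in the highest class. Members named beyond this rule were chosen after their values were seen.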

Additional observations from a re-analysis of the deposited data

Results flagged for a closer look

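In 54 groups of 6 or 7 PDOXs, made of members and classes, the gap of the highest or lowest sample to its neighbour was set against the range of the group, and 3 stood apart beyond Dixon's 95% value, where chance gives about 1 in 20. Mif in endothelial-like cells was at 252 CPM in P13 and at 143 CPM in the next highest of 7 PDOXs. Hif1a in astrocyte-like cells had 0 UMIs, 0 CPM, in T101, and the next lowest of 6 PDOXs was at 85.6 CPM. A single UMI is 32.98 CPM in these 46 cells. Ldha in OPC-like cells was at 380.4 CPM in T233 (40 cells) and at 135 CPM in the next highest of 6 PDOXs.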

How the results depend on the processing

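In myeloid-like cells 1 gene passed the threshold against Nu-NB, and 215 did with DESeq2, 3 without a filter on low counts, 3 at FDR ≤ 0.05, 5 at clustering resolution 2, 6 without the doublet step, 0 with classes from the markers of each cell, and 1 to 51 with one PDOX left out at a time (51 without P8, 4 without T16 and 2 without T101). The members called there were 0, and 2 with DESeq2 (Ldha and Mif). In endothelial-like cells DESeq2 called 2 genes. In astrocyte-like cells 0 genes were called, 1 with DESeq2, 33 without the filter, and 0 to 9 with each PDOX left out (9 without P8), with 0 to 1 members (Gapdh, without P8). Without P8, 0 members passed the threshold in myeloid-like cells, beside 51 genes in all. Of 176 refitted values of members in myeloid-like cells none changed sign and 2, those of Ldha and Mif with DESeq2, passed the threshold. In endothelial-like cells Ndrg1 (log2FC 0.46) ranged from −0.049 (without T192) to 0.51 with each PDOX left out and was −0.30 without the doublet step. In astrocyte-like cells Bnip3l (0.35) went to −0.17 with classes from markers, and Hif1a (−0.049) ranged from −0.16 to 0.056 (without T101) with each PDOX left out and was 0.31 at resolution 2, 0.027 without the doublet step, 0.91 at 500 genes per cell and 0.71 with classes from markers. The endothelial-like comparison was not run at 500 genes, since Nu-NB kept 9 cells. The causes were not tested.

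Activated and other cells differed in 12 genes with the sample as a block and in 0 with no replicate block, in 26 without the filter, 55 without thinning (with 1 member, Pkm), 20 with at least 3 UMIs on the activation list, 55 when split by the homeostatic list, 71 without monocyte-led and macrophage-led clusters (chosen after seeing the data), and 3 to 10 with each PDOX left out (3 without P8, 4 without T101 or T192, 7 without T16). Hk2 (−0.30) was 0.21 without the filter and ranged from −0.41 to 0.028 (without P8) with each PDOX left out. No paired analysis was possible for PDOXs against Nu-NB because there is 1 Nu-NB sample and its number pairs it with no PDOX.

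Of 188 shares, 179 moved by less than the spread between PDOXs. The hypoxia share of myeloid-like cells was 0.0712% without Hif1a, and the difference from Nu-NB in endothelial-like cells was −0.0148 percentage points without the doublet step. The glycolytic share of astrocyte-like cells and its difference from Nu-NB were 0.114% and 0.00512 without Aldoc, 0.299% and 0.0581 at 500 genes per cell, and 0.354% and 0.145 with classes from markers. That of OPC-like cells was 0.121% at 500 genes. Depth limits the endothelial-like comparison, with 1 Nu-NB sample and 0 to 5 UMIs per member in its cells of that class.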
